A study of Mus musculus with 26 samples.

Results

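The response of *Pla2g4d*-deficient (KO) keratinocytes to the cytokines IL17A and TNFα was measured in 16 RNA-sequencing libraries, 2 from each of 8 KO mice. They were taken from a series of 26 libraries by their labels, as the 8 libraries of treated KO cells and the 8 basal libraries of KO cells. The number in the label was taken to mark the animal. The remaining 10 libraries came from 5 wild-type (WT) mice handled in the same way. They entered the filter, the normalization and the fit, and served to test whether the response differed between genotypes. The KO line had been backcrossed to C57BL/6NJ, and the methods of the study give no separate strain for the WT mice. The KO animals carried a constitutive deletion of exon 3 of *Pla2g4d*, made with CRISPR-Cas9, in every cell of the body. Primary keratinocytes were isolated from the skin of neonates aged 2 days and grown for 4 days in low calcium (0.06 mM CaCl2), a condition that holds keratinocytes in a basal, proliferating state. They then received both cytokines together, each at 20 ng/ml, for 24 h or were left untreated (basal). The sex and litter of the animals were not given in the sources used here.

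IL17A and TNFα are the cytokines that drive the epidermal side of psoriasis. TNFα signals through its receptor to the transcription factor NF-kB, and IL17A signals through a receptor pair and the adaptor encoded by *Traf3ip2* to NF-kB, the atypical IkB protein encoded by *Nfkbiz* and C/EBP factors. Keratinocytes respond by making chemokines that attract neutrophils, IL-1 family cytokines and antimicrobial proteins. Keratinocytes that leave the basal layer switch on the keratins encoded by *Krt1* and *Krt10* and, later, the proteins of the cornified envelope, filaggrin and loricrin. PLA2G4D belongs to the cytosolic phospholipases A2, which release fatty acids from membrane phospholipids.

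All 11 keratinocyte markers were detected in every KO library, with a summed level of 53230 to 59000 CPM (counts per 1e6, normalized for library composition) in basal and 42900 to 44920 CPM in treated cells. The 8 melanocyte markers summed to 490.8 to 652.2 CPM in basal cells (median 569.4) and to 326.2 to 430.3 CPM in treated cells (median 353.1), and 4 of them, *Mitf*, *Dct*, *Pmel* and *Tyr*, were lowered. Fewer cells of a type and less RNA per cell cannot be told apart in bulk samples. The 10 fibroblast markers summed to at most 12.35 CPM, the 7 endothelial markers to at most 6.838 CPM and the 12 immune cell markers to at most 4.919 CPM in any KO library, with 5 of the immune and 2 of the endothelial markers at 0 in all 16. Of the tested members of these lists, 1 of 9 fibroblast markers was lowered, 2 of 3 endothelial markers were raised and 1 was lowered, and none of 2 immune markers was called. The libraries held 45910502 to 74595457 counts in basal and 42726350 to 78102858 in treated KO cells, so counting error is small for all but the genes with the lowest levels.

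There were 2 KO libraries that stood apart from the rest. Among 11855 genes with a mean normalized count over 100, the treated library of KO replicate 8 lay far outside the range of the other 7 for 383 genes (3.23%) and the basal library of KO replicate 4 for 555 genes (4.68%), against 0.118% to 1.78% for each of the other libraries. A library was taken to lie far outside where its gap to the nearest other library was a larger part of the range of its group than Dixon's critical value for 8 samples. Among the 1129 of these genes that responded to the cytokines, KO replicate 8 was far above the other treated libraries for 86 and far below for 10. The responses of single mice, as the log2 difference between the libraries of each animal, rose with the mean response of the other 7 mice with slopes of 0.903 to 1.04. The correlation across genes was 0.838 to 0.906 for 7 mice and 0.68 for KO replicate 4. The pairing by number had the least support for KO replicate 4. Deviations of its 2 libraries from their group means correlated at 0.000509, the lowest value of the 8 pairs. Of the 167 genes named by a rule, none moved in log2 fold change by more than 0.323 without KO replicate 4, or by more than 0.303 without KO replicate 8 except for *Gm9696*.

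**Figure D1:**
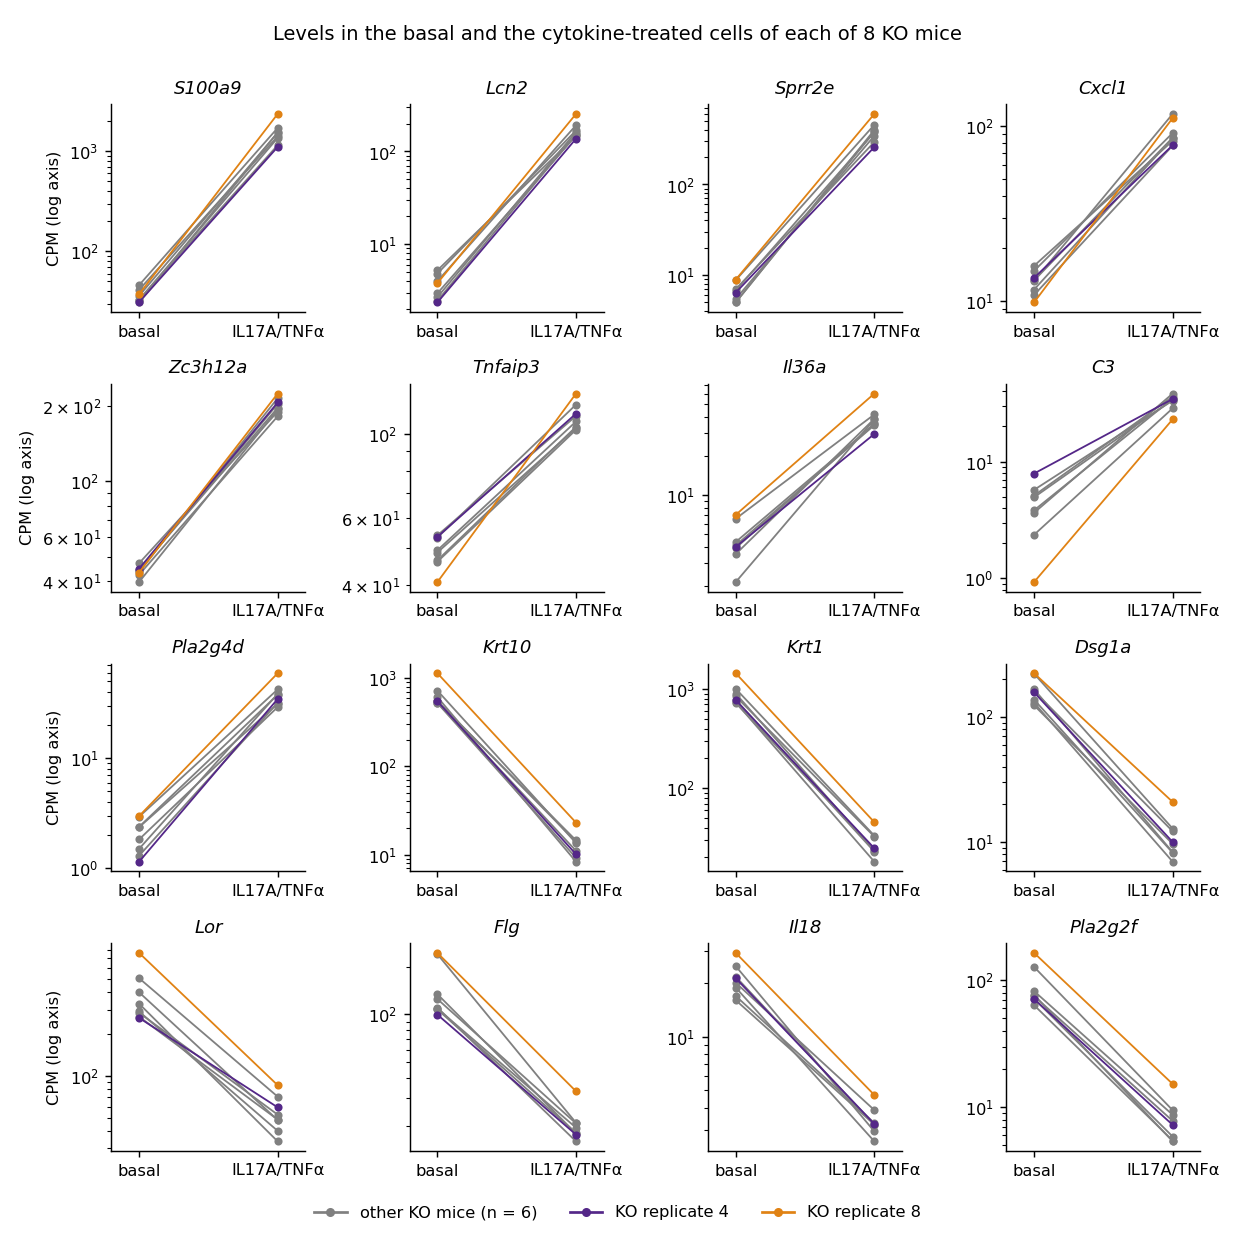
Levels of 16 genes in CPM (log axis) in the basal and the IL17A/TNFα-treated cells of each of 8 KO mice, with a line for each mouse. Each gene moved in the same direction in all 8 mice, and KO replicate 8 (orange) had the highest *Krt10*, *Krt1*, *Flg* and *Dsg1a* levels of the treated libraries while showing the same fall.

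The cytokines changed the expression of 1837 of 16893 tested genes in KO cells (10.9%). A gene was called where the adjusted p was under 0.1 and the fold change over 1.5, and only such genes are said to have risen or fallen. Expression rose for 1069 genes (6.33%) and fell for 768 (4.55%), around a median log2 fold change of 0.0046 over all tested genes. The counts of raised and lowered list members given below are to be read beside these shares. Without KO replicate 8 the count was 1775, and without KO replicate 4 it was 1812. Without the fold threshold, 6048 genes (35.8%) had an adjusted p under 0.1, so the greater number of the differences passing the test were smaller than 1.5-fold. Rises reached further than falls, with 71 genes raised and 36 lowered at least 8-fold and 9 raised and 2 lowered at least 64-fold. Of the called genes, 1404 (76.4%) moved the same way in all 8 mice, against 23.6% of all tested genes. For 598 of the 1069 raised genes every treated library was above every basal one, which held for 1101 (6.52%) of all tested genes. For 378 of the 768 lowered genes every treated library was below, which held for 885 (5.24%) of all tested genes. The calls were made on these same libraries, so higher shares among called genes follow in part from the selection.

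Expression of *Pla2g4d* itself remained measurable and responded to the cytokines. Reads of all exons of a gene were summed, those that the deletion leaves in place included, and the absence of exon 3 was therefore not checked by these values. The study itself reported that treated KO cells gave no exon 3 product in RT-PCR and no sequencing reads in that exon. In KO cells *Pla2g4d* lay between 1.15 and 2.98 CPM (median 2.1) in basal and between 29.2 and 59.2 CPM (median 36.2) in treated cells, a rise with no overlap between the groups (log2 fold change 4.22 ± 0.24, adjusted p = 2.01e-14). Log2 fold changes are given throughout ± standard error for 8 treated against 8 basal KO libraries, with the spread estimated from all 26 libraries. The fit held no term for the mouse, and the mouse as a block was used as an alternative. In WT cells *Pla2g4d* had a log2 fold change of 3.97 ± 0.29, and the 2 responses were not called different (difference 0.25 ± 0.35, adjusted p = 0.904). Among the other cytosolic phospholipases A2, *Pla2g4e*, *Pla2g4f* and *Pla2g4b* rose as well. *Pla2g4e* lay between 10.4 and 18 CPM (median 14.1) in basal and between 72 and 134 CPM (median 83.6) in treated cells (log2 fold change 2.65 ± 0.16, adjusted p = 1.04e-13), and *Pla2g4f* had a log2 fold change of 1.02 ± 0.16. The gene of the widely expressed cytosolic enzyme, *Pla2g4a*, was not called. *Pla2g2d* and *Pla2g2f*, which code for secreted phospholipases A2, were lowered, and *Pla2g2e* and *Pla2g12a*, which code for others, were not called. *Pla2g2f*, whose product is the secreted enzyme of suprabasal epidermis, lay between 63.7 and 165 CPM (median 76) in basal and between 5.37 and 15.2 CPM (median 7.52) in treated cells (log2 fold change -3.49 ± 0.27, adjusted p = 1.45e-11). Of 26 tested genes for phospholipases A2 and eicosanoid synthesis, 6 rose, 3 fell and 17 were not called (median log2 fold change 0.10). Over all tested genes, 6.33% rose and 4.55% fell. The prostaglandin E synthase gene *Ptges* rose (1.28 ± 0.10) with *Ptgs1*, while the inducible cyclooxygenase gene *Ptgs2* lay between 730.1 and 979 CPM (median 851) in basal and between 704 and 1197 CPM (median 866) in treated cells, with overlapping groups and no call (log2 fold change 0.10 ± 0.10, adjusted p = 0.507). The leukotriene B4 receptor gene *Ltb4r2* fell.

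Genes with the largest rises coded for a small set of antimicrobial, cornified envelope and metabolic proteins. *U90926* rose the most by the fitted fold change, from 4 reads in total over the 8 basal libraries, 7 of which were at 0, to 4181 reads over the 8 treated libraries at 8.43 to 12.4 CPM (median 9.82). Its log2 fold change of 9.85 ± 0.40 rests on those 4 reads, all from KO replicate 2, and was 12.18 without that mouse, so only its direction and the treated level are well measured. The same holds for *Vnn3*, of the vanin pantetheinase family, with 14 basal reads in all, 6 basal libraries at 0 and 4.56 to 8.73 CPM (median 5.64) in treated cells. *Uox*, the gene of the urate-degrading enzyme urate oxidase, lay between 0.0383 and 0.542 CPM (median 0.224) in basal and between 12.3 and 25.5 CPM (median 17) in treated cells and did not overlap between the groups (log2 fold change 6.15 ± 0.27, adjusted p = 5.54e-17). The other largest rises belonged to *Defb3*, *Lce3a*, *Lce3b*, *Sprr2f*, *Sprr2e*, *S100a7a* and *Lcn2*, which are described with their families.

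Antimicrobial and acute-phase genes had the largest share of raised members of any long list. Of 18 tested, 14 rose, 1 fell and 3 were not called (median log2 fold change 3.25 against 0.0046 for all genes). *S100a9* and *S100a8* code for both subunits of calprotectin, which binds metal ions that bacteria need. *S100a9* lay between 30.9 and 45.8 CPM (median 34.3) in basal and between 1103 and 2357 CPM (median 1468) in treated cells. *S100a8* lay between 14.9 and 38.6 CPM (median 32.1) in basal and between 825 and 1856 CPM (median 1065) in treated cells. Every treated library was far above every basal library for both, with log2 fold changes of 5.40 ± 0.15 (adjusted p = 5.35e-21) and 5.21 ± 0.19 (adjusted p = 1.12e-18). Without KO replicate 8, which had the highest treated level, the value for *S100a8* was 5.10. The siderophore-binding lipocalin gene *Lcn2* lay between 2.35 and 5.22 CPM (median 3.37) in basal and between 137 and 254 CPM (median 158) in treated cells (log2 fold change 5.61 ± 0.20, adjusted p = 1.15e-18). The β-defensin gene *Defb3* lay between 0 and 0.194 CPM (median 0.0542) in basal and between 11.6 and 32.3 CPM (median 17.1) in treated cells (log2 fold change 7.85 ± 0.41, adjusted p = 2.91e-15). Basal *Defb3* reads numbered 38 over 8 libraries, 3 of them at 0. The psoriasin-related gene *S100a7a* lay between 0.0574 and 0.953 CPM (median 0.616) in basal and between 18.4 and 41 CPM (median 24.5) in treated cells (log2 fold change 5.64 ± 0.33, adjusted p = 4.39e-14), and the serum amyloid gene *Saa3* lay between 0.42 and 2.04 CPM (median 0.692) in basal and between 33.8 and 42 CPM (median 37) in treated cells (log2 fold change 5.55 ± 0.31, adjusted p = 1.29e-14). None of these 3 overlapped between the groups. The other raised members were *Saa1*, *Saa2*, *Pglyrp1*, *Slpi*, *Defb6*, *Defb4*, *Defb14* and *Serpina3n*. The exception was *Defb1*, the constitutively expressed β-defensin of epithelia, which lay between 154 and 277 CPM (median 221) in basal and between 50.3 and 88.3 CPM (median 73.3) in treated cells, a fall in all 8 mice (log2 fold change -1.65 ± 0.11, adjusted p = 5.05e-13). Defensin and serum amyloid genes have close paralogs, and reads shared between them could be divided by the counting in a way that the deposited table does not show. The cathelicidin gene *Camp* had no read in any KO library.

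The 4 tested chemokines of the ELR type, which attract neutrophils through CXCR2, all rose in KO cells (median log2 fold change 3.49). They lie in a cluster on chromosome 5, and the sequences just before their transcription starts are shown because each holds a match to the NF-kB consensus. The letters are the 130 bases before the start of the canonical GENCODE transcript in GRCm39, read on the strand of the gene, and the capitals mark the overlapping matches to the consensus, searched on both strands. *Tnip3*, an NF-kB feedback regulator described below, and *Krt10*, with no match, are shown for comparison. These genes were chosen after the matches had been seen.
Cxcl1 (chr5:91038964-91039093, plus strand): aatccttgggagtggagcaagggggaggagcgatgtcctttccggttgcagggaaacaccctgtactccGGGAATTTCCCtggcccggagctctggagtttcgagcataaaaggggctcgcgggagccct
Cxcl2 (chr5:91051600-91051729, plus strand): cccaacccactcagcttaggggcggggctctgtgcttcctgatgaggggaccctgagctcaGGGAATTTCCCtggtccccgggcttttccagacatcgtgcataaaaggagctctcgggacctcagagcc
Cxcl3 (chr5:90933832-90933961, plus strand): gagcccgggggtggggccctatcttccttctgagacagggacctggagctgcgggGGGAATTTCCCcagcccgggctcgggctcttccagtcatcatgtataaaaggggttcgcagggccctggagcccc
Cxcl5 (chr5:90907107-90907236, plus strand): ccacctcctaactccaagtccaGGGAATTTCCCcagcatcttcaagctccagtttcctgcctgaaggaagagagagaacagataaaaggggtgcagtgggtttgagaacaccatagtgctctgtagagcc
Tnip3 (chr6:65502167-65502296, plus strand): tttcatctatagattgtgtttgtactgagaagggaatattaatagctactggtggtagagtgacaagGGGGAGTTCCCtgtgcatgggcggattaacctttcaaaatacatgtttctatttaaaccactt
Krt10 (chr11:99280196-99280325, minus strand): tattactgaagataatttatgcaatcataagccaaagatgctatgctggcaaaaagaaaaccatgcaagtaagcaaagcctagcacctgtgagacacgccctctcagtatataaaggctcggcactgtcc

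In the 4 chemokine genes the capitals are the same letters, and they begin 61, 69, 75 and 108 bases before the start of *Cxcl1*, *Cxcl2*, *Cxcl3* and *Cxcl5*, respectively. *Cxcl1* lay between 9.83 and 15.9 CPM (median 13.1) in basal and between 77.3 and 117 CPM (median 85.4) in treated cells (log2 fold change 2.82 ± 0.13, adjusted p = 1.07e-16). *Cxcl2* lay between 0.21 and 1.05 CPM (median 0.727) in basal and between 3.99 and 7.48 CPM (median 4.17) in treated cells (log2 fold change 2.82 ± 0.30, adjusted p = 1.21e-08). Treated libraries of both were all above the basal ones, and those of *Cxcl3* and *Cxcl5* were too. *Cxcl3* lay between 0 and 0.498 CPM (median 0.06) in basal and between 1.44 and 5.29 CPM (median 2.44) in treated cells (log2 fold change 4.60 ± 0.64, adjusted p = 1.21e-06), with 54 basal reads in all and 3 basal libraries at 0. Leaving out KO replicate 2 raised this value to 5.23. *Cxcl5* lay between 0 and 0.515 CPM (median 0.196) in basal and between 0.717 and 7.72 CPM (median 4.09) in treated cells (log2 fold change 4.15 ± 0.64, adjusted p = 6.72e-06), and its lowest treated and lowest basal library were both those of KO replicate 8. *Ppbp* and *Cxcl15* were under the filter on low counts.

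Over the promoters of 16269 tested genes, taken as 250 bases before the start, the NF-kB consensus of 10 bases matched on either strand in 7.92%. It matched in 12.8% of the promoters of raised genes (133 of 1039), in 9.2% of those of lowered genes (68 of 739) and in 7.51% of the rest. The C/EBP-type motif TTGCNNAA was in 11.5% of raised, 12.3% of lowered and 8.57% of all tested promoters, and the AP-1-type motif TGANTCA in 9.91%, 9.2% and 5.31%, so these motifs were more frequent in promoters of genes that moved in either direction. Among genes raised at least 4-fold the shares were 15.5% for the NF-kB consensus, 21.7% for TTGCNNAA and 12.4% for TGANTCA, and among those lowered at least 4-fold they were 5.83%, 17.5% and 11.7%. Median GC content was 50.8% and 50.4% in the promoters of these 2 sets. It was 54.8% for raised, 54% for lowered and 55.2% for all promoters. A match describes the letters and not a binding site, and the shares were not tested.

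Among 11 other chemokines tested, 6 rose, 1 fell and 4 were not called (median log2 fold change 0.96). *Ccl20*, the ligand that attracts CCR6-bearing Th17 cells, lay between 9.12 and 14.3 CPM (median 11.7) in basal and between 23.8 and 34.9 CPM (median 28.8) in treated cells, with no overlap (log2 fold change 1.27 ± 0.12, adjusted p = 8.25e-10). The membrane-bound chemokine gene *Cxcl16* lay between 212 and 246 CPM (median 236) in basal and between 427 and 499 CPM (median 443) in treated cells (log2 fold change 0.96 ± 0.046, adjusted p = 3.95e-16). *Cxcl10*, an interferon-inducible chemokine gene, lay between 0.115 and 0.99 CPM (median 0.642) in basal and between 1.05 and 1.91 CPM (median 1.72) in treated cells (log2 fold change 1.45 ± 0.39, adjusted p = 0.00507). *Ccl2*, *Ccl6* and *Ccl9* rose at low levels, and *Cxcl14*, a chemokine gene of resting epidermis, fell in 8 of 8 mice (log2 fold change -0.81 ± 0.10, adjusted p = 1.24e-07). *Cxcl12* lay between 4.57 and 8.78 CPM (median 6.89) in basal and between 7.39 and 12.4 CPM (median 9.14) in treated cells and was not called (log2 fold change 0.51 ± 0.15, adjusted p = 0.0123). The 14 chemokines under the filter included *Ccl5*, *Ccl3*, *Ccl4*, *Cxcl9* and *Cxcl11*.

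Other cytokine genes rose in KO cells for 9 of 12 tested (median 1.20). *Csf2*, which codes for the granulocyte-macrophage growth factor, lay between 0 and 0.385 CPM (median 0.0217) in basal and between 2.63 and 4.93 CPM (median 3.81) in treated cells (log2 fold change 5.23 ± 0.56, adjusted p = 1.34e-08). Its 44 basal reads came from 4 libraries, and the value was 5.98 without KO replicate 5. *Csf3*, the gene of the granulocyte growth factor, lay between 0.542 and 2.47 CPM (median 1.39) in basal and between 7.38 and 10.1 CPM (median 9.03) in treated cells (log2 fold change 2.53 ± 0.24, adjusted p = 1.71e-09). *Tnf* lay between 9.52 and 18.8 CPM (median 12) in basal and between 28.2 and 50.5 CPM (median 31.9) in treated cells (log2 fold change 1.51 ± 0.13, adjusted p = 1.64e-10), so transcripts of one of the added cytokines were themselves more abundant in treated cells. The groups did not overlap for these 3 genes. *Il23a*, the specific subunit gene of IL23, lay between 1.68 and 4.17 CPM (median 2.32) in basal and between 3.61 and 7.85 CPM (median 4.97) in treated cells, with overlapping groups (log2 fold change 0.999 ± 0.21, adjusted p = 0.00047). *Il17c* stayed under 1 CPM in every library (log2 fold change 3.19 ± 0.71, adjusted p = 0.000794). The value was 4.02 with the mouse as a block and 4.25 without KO replicate 3. *Lif*, *Il34*, *Csf1* and *Tgfb1* rose, and *Tslp*, an alarmin that acts on type 2 immunity, fell (log2 fold change -0.86 ± 0.18, adjusted p = 0.00041). *Il6*, *Il12b*, *Il19* and *Il20* were under the filter, with at most 33 reads over 8 libraries except for *Il12b*, which had no basal read and 64 reads in treated cells.

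The IL-1 and IL-36 family split, with 6 of 14 tested genes raised, 3 lowered and 5 not called (median 0.38). *Il36a* lay between 2.14 and 7.05 CPM (median 4.04) in basal and between 29.6 and 60.7 CPM (median 37.1) in treated cells (log2 fold change 3.15 ± 0.22, adjusted p = 1.39e-12), while *Il36g* rose less and *Il36b* was not called. *Il1a* lay between 25.7 and 43.3 CPM (median 33.1) in basal and between 82.3 and 118 CPM (median 106) in treated cells (log2 fold change 1.58 ± 0.11, adjusted p = 2.73e-12). Neither gene overlapped between the groups. Both natural antagonists rose too, *Il1rn* with a log2 fold change of 1.22 ± 0.10 and *Il36rn* with 0.70 ± 0.15. Against this, the alarmin genes *Il18* and *Il33* fell in all 8 mice. *Il18* lay between 16 and 29.4 CPM (median 20.6) in basal and between 2.58 and 4.7 CPM (median 3.22) in treated cells (log2 fold change -2.64 ± 0.14, adjusted p = 5.26e-15), and *Il33* lay between 5.5 and 15.6 CPM (median 7.98) in basal and between 2.42 and 4.93 CPM (median 3.51) in treated cells (log2 fold change -1.36 ± 0.21, adjusted p = 8.48e-06). The treated libraries of both lay below all basal ones. *Il1b* was under the filter, with 34 reads in basal and 80 in treated cells over 8 libraries each.

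**Figure D2:**
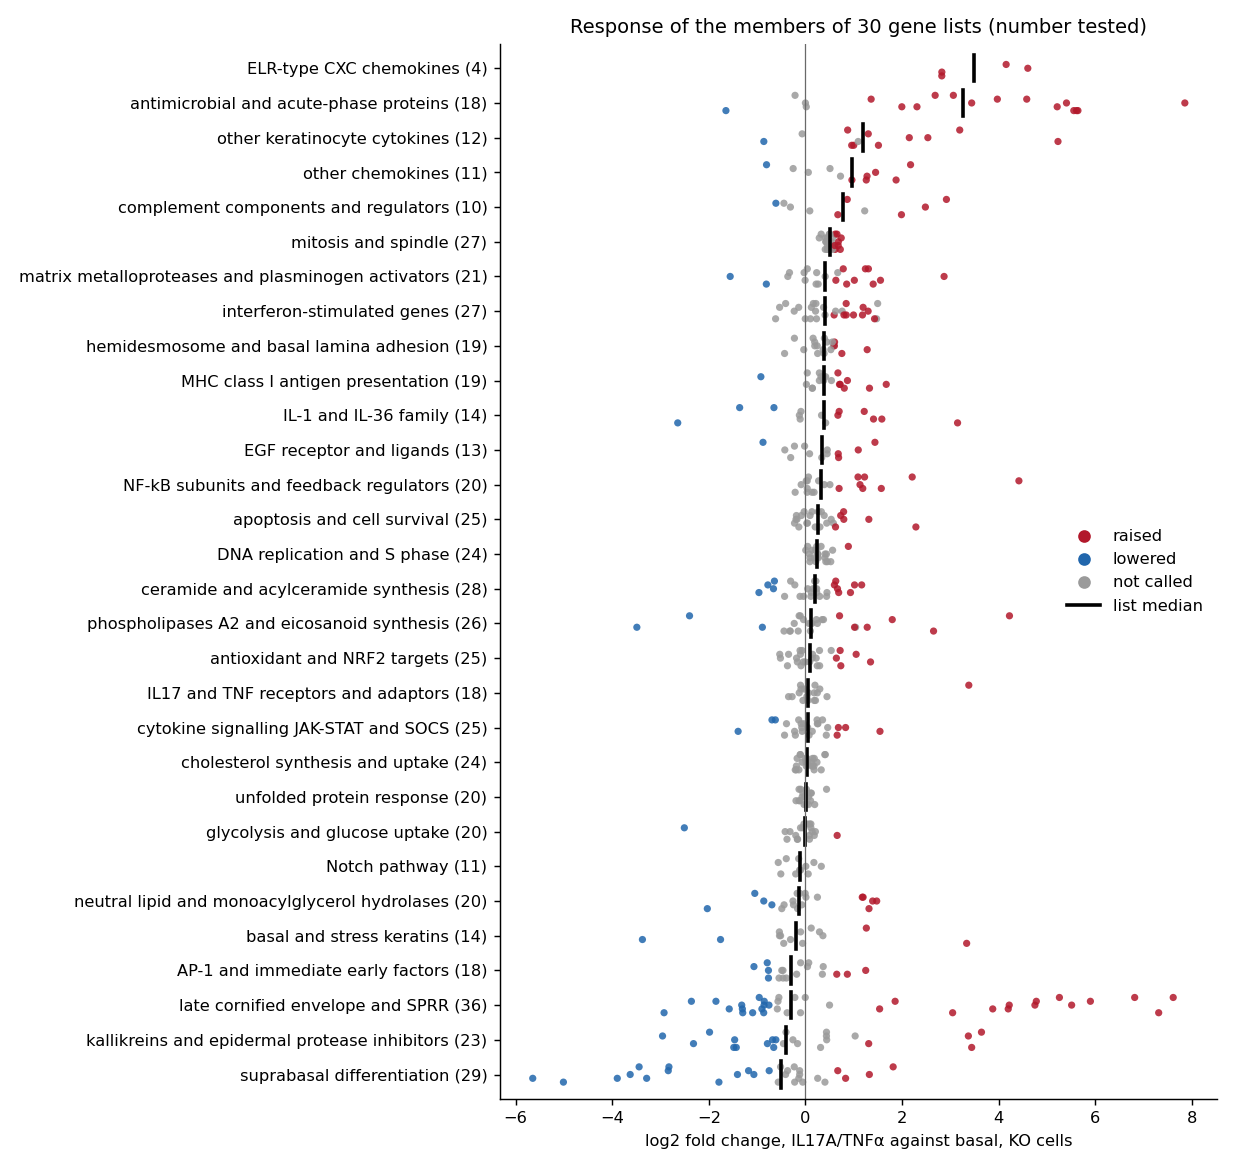
Log2 fold changes of IL17A/TNFα against basal in KO cells for the tested members of 30 gene lists, ordered by the list median (black bar), with raised genes in red, lowered genes in blue and genes not called in grey. Chemokine, antimicrobial and cytokine lists lie to the right, suprabasal differentiation lies furthest left with a median of -0.52, and the cornified envelope list spreads from -2.93 to 7.61.

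Of 20 tested genes for NF-kB subunits, kinases and feedback regulators, 8 rose, none fell and 12 were not called (median 0.33). Those without a call included the subunit genes *Rela*, *Relb*, *Rel*, *Nfkb1* and *Nfkb2* and the kinase genes *Ikbkb* and *Chuk*, while the kinase gene *Ikbke* rose. *Zc3h12a*, the gene of the ribonuclease regnase-1, lay between 39.5 and 47 CPM (median 43.8) in basal and between 182 and 224 CPM (median 200.2) in treated cells (log2 fold change 2.21 ± 0.043, adjusted p = 2.89e-25). The deubiquitinase gene *Tnfaip3* lay between 40.7 and 54 CPM (median 49) in basal and between 103 and 128 CPM (median 109.8) in treated cells (log2 fold change 1.19 ± 0.061, adjusted p = 2.19e-15), and *Nfkbia*, the gene of IkBα, lay between 148 and 172 CPM (median 163) in basal and between 354 and 418 CPM (median 369) in treated cells (log2 fold change 1.22 ± 0.048, adjusted p = 5.56e-18). None of these 3 overlapped between the groups, and each was higher in 8 of 8 mice. *Nfkbiz*, the mediator of IL17A responses, rose by a log2 fold change of 1.13 ± 0.056, and *Birc3* and *Nfkbie* rose as well. *Tnip3* had the largest fold in the list from very low counts (log2 fold change 4.42 ± 0.57, adjusted p = 3e-07, 44 basal reads). The receptors and adaptors that carry the signal were called for 1 of 18 genes (median 0.055), against 10.9% of all tested genes. Without the fold threshold, 7 had an adjusted p under 0.1 upward and 4 downward, against 35.8% of all tested genes in either direction. The called gene was *Tnfrsf1b*, the second TNF receptor, which lay between 0 and 0.464 CPM (median 0.263) in basal and between 2.06 and 3.42 CPM (median 2.57) in treated cells (log2 fold change 3.38 ± 0.43, adjusted p = 2.51e-07). *Traf3ip2* was higher in all 8 mice by 0.30 ± 0.034, under the fold threshold, and *Il17ra*, *Il17rc* and *Tnfrsf1a* were not called.

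Immediate early and AP-1 genes showed 3 rises and 4 falls among 18 tested (median -0.29). Over all tested genes, 6.33% rose and 4.55% fell. *Cebpd*, a C/EBP factor gene of the acute phase response, lay between 11.9 and 20.0 CPM (median 16.4) in basal and between 33.6 and 48.7 CPM (median 37.2) in treated cells (log2 fold change 1.25 ± 0.10, adjusted p = 5.23e-11), and *Ier3* and *Maff* rose. *Cebpb* was higher by 0.35 ± 0.10, below the fold threshold. *Egr1* lay between 238 and 306 CPM (median 261) in basal and between 76.1 and 261 CPM (median 94.3) in treated cells (log2 fold change -1.07 ± 0.21, adjusted p = 0.000144). The treated libraries of KO replicates 7 and 8 stood at 227 and 261 CPM, near the basal range, and those of the other 6 mice between 76.1 and 97.7 CPM, so that the groups overlapped. Of the related genes, *Egr2* and *Egr3* fell. *Fosb* was called at low levels (log2 fold change -0.77 ± 0.33, adjusted p = 0.0769) and was not called with the mouse as a block (adjusted p = 0.122) or without KO replicate 1, 3, 6 or 8. *Myc* was lower in all 8 mice by -0.47 ± 0.062 and was not called. In the list of cytokine receptors, JAKs, STATs and SOCS proteins, 4 of 25 genes rose, 3 fell and 18 were not called (median 0.046). The same shares over all tested genes, 6.33% and 4.55%, stand beside these counts. The feedback inhibitor gene *Socs1* rose (log2 fold change 1.54 ± 0.24, adjusted p = 6.95e-06) and *Socs3* was not called (-0.39 ± 0.10). *Il22ra1*, the IL22 receptor gene, rose by 0.83 ± 0.14 and *Il20rb*, a receptor gene for IL20 family cytokines, fell (log2 fold change -1.39 ± 0.10, adjusted p = 9.64e-12).

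Genes of complement and of antigen presentation rose in part. Of 10 complement genes tested, 5 rose, 1 fell and 4 were not called (median 0.77). *C3*, the central component, lay between 0.929 and 7.89 CPM (median 4.38) in basal and between 23 and 38.2 CPM (median 34.1) in treated cells, with no overlap (log2 fold change 2.92 ± 0.32, adjusted p = 1.85e-08), and KO replicate 8 had the lowest level in both groups. The classical pathway proteases *C1s1* and *C1ra* rose by 2.48 ± 0.20 and 1.99 ± 0.20. *C2* was lowered (log2 fold change -0.61 ± 0.21, adjusted p = 0.0287) but was under the fold threshold without KO replicate 2 or 7 and at -0.58 with all mice as blocks. Of 19 genes of class I antigen presentation, 7 rose, 1 fell and 11 were not called (median 0.38). The immunoproteasome gene *Psmb8* lay between 2.01 and 3.58 CPM (median 2.3) in basal and between 5.73 and 11.4 CPM (median 7.27) in treated cells (log2 fold change 1.67 ± 0.18, adjusted p = 2.24e-08), and *Psmb9*, *Psmb10*, *Psme2*, *H2-M3*, *H2-Q4* and the peptide transporter gene *Tap2* (0.72 ± 0.10) rose. Heavy chain genes *H2-K1* and *H2-D1* were higher in all 8 mice by 0.29 ± 0.047 and 0.32 ± 0.053, under the fold threshold. *Nlrc5*, the transactivator of class I genes, fell (log2 fold change -0.92 ± 0.22, adjusted p = 0.00135).

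Interferon-stimulated genes gave 9 rises, no fall and 18 without a call among 27 tested (median 0.41). *Irf1*, itself an NF-kB target, lay between 11.6 and 18 CPM (median 14.2) in basal and between 27.4 and 39 CPM (median 32.3) in treated cells, without overlap (log2 fold change 1.18 ± 0.10, adjusted p = 1.76e-10). The guanylate-binding protein gene *Gbp2* lay between 2.28 and 4.72 CPM (median 2.67) in basal and between 5.56 and 9.57 CPM (median 7.91) in treated cells (log2 fold change 1.30 ± 0.19, adjusted p = 2.15e-06). *Isg15* rose from a median of 1.5 to 2.62 CPM (log2 fold change 0.84 ± 0.27, adjusted p = 0.0195), and *Oasl2* rose in 7 of 8 mice (log2 fold change 1.43 ± 0.40, adjusted p = 0.00637). By contrast, *Stat2*, *Irf9*, *Bst2*, *Ifit1*, *Ifit2* and *Ifit3* were not called, and *Irf7* lay between 1.26 and 2.75 CPM (median 1.61) in basal and between 1.2 and 2.93 CPM (median 2.22) in treated cells (log2 fold change 0.21 ± 0.25, adjusted p = 0.595).

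The 10 largest falls among genes with a mean normalized count over 100 included the suprabasal keratin genes *Krt10* and *Krt1* and the adhesion gene *Dsg1a*. Of 29 tested genes of suprabasal differentiation, 13 fell, 4 rose and 12 were not called (median -0.52). *Krt10* lay between 523 and 1139 CPM (median 549.8) in basal and between 8.28 and 23 CPM (median 12.2) in treated cells, and its partner *Krt1* lay between 726 and 1447 CPM (median 813) in basal and between 18.1 and 45.3 CPM (median 24.5) in treated cells. No treated library came near a basal one for either gene, with log2 fold changes of -5.64 ± 0.27 (adjusted p = 3.45e-16) and -5.01 ± 0.19 (adjusted p = 5.56e-18). KO replicate 8 was the highest library of both groups for both genes, and without it the values were -5.65 and -5.02. The desmoglein gene *Dsg1a* lay between 124 and 225 CPM (median 159.8) in basal and between 6.96 and 20.9 CPM (median 9.84) in treated cells (log2 fold change -3.89 ± 0.19, adjusted p = 5.3e-16). Filaggrin (*Flg*), which aggregates keratin filaments, and loricrin (*Lor*), the main protein of the cornified envelope, fell without overlap. *Flg* lay between 99.7 and 244 CPM (median 118) in basal and between 15.9 and 32.9 CPM (median 18.7) in treated cells (log2 fold change -2.84 ± 0.20, adjusted p = 1.99e-12), and *Lor* lay between 261 and 769 CPM (median 311) in basal and between 33.7 and 85.5 CPM (median 50.4) in treated cells (log2 fold change -2.83 ± 0.24, adjusted p = 1.7e-10). *Flg2*, *Hrnr*, *Calml3*, *Krt77*, *Dsc1*, *Casp14* and *Krtdap* fell too. Involucrin (*Ivl*) was called (log2 fold change -0.75 ± 0.17, adjusted p = 0.00114) but was at -0.56, under the fold threshold, without KO replicate 8.

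The list did not move as a whole. The transglutaminase genes *Tgm1*, *Tgm3* and *Tgm5*, *Cdsn*, *Sbsn* and the transcription factor genes *Klf4*, *Grhl1*, *Ovol1* and *Zfp750* were not called, and the retroviral-like protease gene *Asprv1* lay between 1297 and 2617 CPM (median 1463) in basal and between 1167 and 2568 CPM (median 1446) in treated cells (log2 fold change -0.057 ± 0.18, adjusted p = 0.867). There were 4 raised members. *Cnfn*, which codes for the cornified envelope protein cornifelin, lay between 74.7 and 176 CPM (median 94.8) in basal and between 283 and 538 CPM (median 361) in treated cells (log2 fold change 1.81 ± 0.18, adjusted p = 2.37e-09), and the others were *Prdm1* and *Grhl3*, both transcription factor genes of terminal differentiation, and *Rptn*.

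The others of these 10 included *Gsdmc*, *Tdh*, *Gm9696*, *Gm11940*, *Gm43735* and *Serpina12*. *Gsdmc*, of the gasdermin family of pore-forming proteins, lay between 23.4 and 44.1 CPM (median 27.5) in basal and between 0.76 and 2.15 CPM (median 0.887) in treated cells (log2 fold change -4.79 ± 0.19, adjusted p = 5.56e-18). *Serpina12*, the gene of the serpin vaspin, lay between 3.9 and 16.8 CPM (median 7.03) in basal and between 0.34 and 1.49 CPM (median 0.652) in treated cells (log2 fold change -3.54 ± 0.35, adjusted p = 2.04e-09), and *Tdh*, the gene of threonine dehydrogenase, lay between 3.47 and 8.44 CPM (median 4.3) in basal and between 0 and 0.442 CPM (median 0.128) in treated cells (log2 fold change -4.91 ± 0.40, adjusted p = 4.48e-11). A fall in 8 of 8 mice was a condition for choosing all 6. *Gm11940* is annotated as a long noncoding RNA from 99278166 to 99278723 on the plus strand of chromosome 11, inside *Krt10*, which spans 99276072 to 99280195 on the minus strand. The strand setting of the counting was not given in the sources used here, so its fall (-5.30 ± 0.37) cannot be told apart from that of *Krt10* reads. The symbol *Gm9696* covers more than 1 annotated gene and its log2 fold change of -5.05 ± 0.42 is uncertain, and was -6.08 without KO replicate 8. *Gm43735* had 100 reads over the 8 treated libraries.

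The late cornified envelope (LCE) and small proline-rich (SPRR) genes, whose products are cross-linked into the cornified envelope, moved in opposite directions by subfamily. Of 36 tested, 14 rose, 14 fell and 8 were not called (median -0.30). They share a stretch of chromosome 3 with *Lor*, *Ivl*, *Flg* and other barrier genes, from 91987578 to 93306749 in GRCm39, in which 42 members of the 2 lists were tested. The 8 neighbouring genes from *Sprr2b* to *Sprr2k* (92223927 to 92341232) all rose, with log2 fold changes of 1.53 to 6.81. The next 19 genes, from *Sprr1b* to *Lce1l* (92344116 to 92758593), had no raised member, 14 lowered ones and log2 fold changes of -2.93 to 0.50. All 6 *Lce3* genes, side by side from 92832594 to 92900733, rose, with 4.20 to 7.61. The genes that follow, *Lce1m*, *Flg2*, *Flg* and *Hrnr*, fell, and *Rptn* rose. These borders were drawn after the values had been seen.

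**Figure D3:**
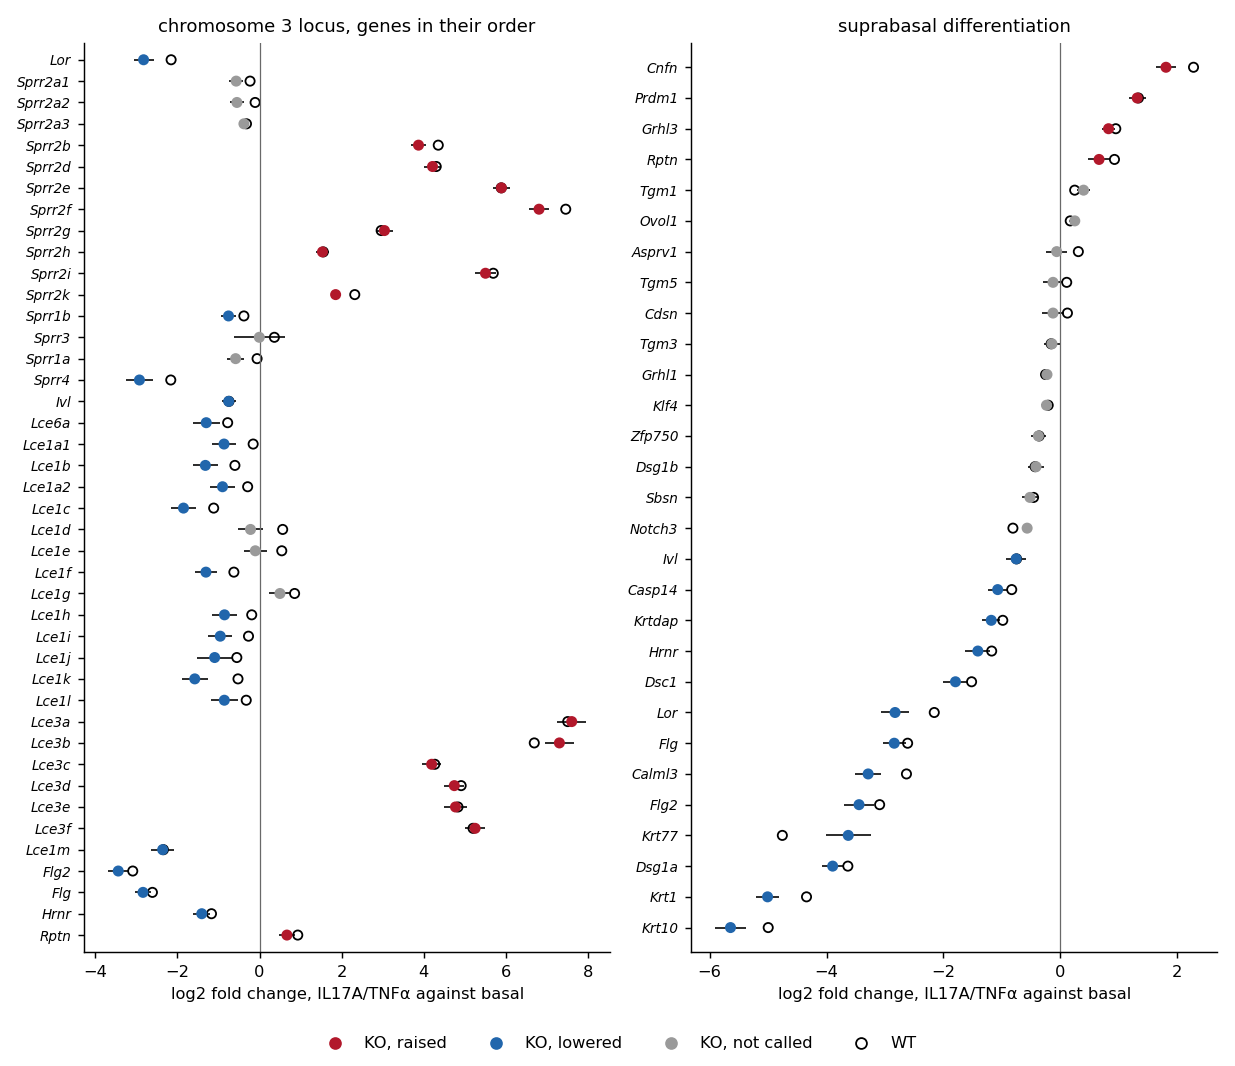
Log2 fold changes in KO cells (filled, with standard error) and in WT cells (open) for 42 genes of the chromosome 3 stretch in the order of their positions (left) and for the 29 genes of suprabasal differentiation (right). Raised *Sprr2* and *Lce3* genes form separate runs with the lowered *Sprr1b* to *Lce1l* run between them.

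Within these runs *Lce3a* lay between 0 and 0.651 CPM (median 0.162) in basal and between 38.6 and 85.6 CPM (median 50.5) in treated cells (log2 fold change 7.61 ± 0.36, adjusted p = 3.45e-16), and *Lce3b* lay between 0.213 and 0.774 CPM (median 0.398) in basal and between 50.3 and 111 CPM (median 61.9) in treated cells (log2 fold change 7.31 ± 0.35, adjusted p = 3.97e-16). Both were nearly silent in basal cells, with 126 and 193 reads in all. The *Sprr2* genes *Sprr2f* and *Sprr2e* lay between 0.515 and 1.94 CPM (median 0.914) in basal and between 73.9 and 170.3 CPM (median 111) in treated cells and between 4.94 and 8.83 CPM (median 6.51) in basal and between 259.6 and 605 CPM (median 383) in treated cells, respectively. Groups did not overlap for any of these 4 genes, whose log2 fold changes for *Sprr2f* and *Sprr2e* were 6.81 ± 0.25 and 5.90 ± 0.20. In the lowered run *Sprr4* lay between 3.81 and 10.1 CPM (median 5.17) in basal and between 0.283 and 1.52 CPM (median 0.716) in treated cells (log2 fold change -2.93 ± 0.33, adjusted p = 4.07e-08), and *Lce1m*, beyond the *Lce3* genes, lay between 3.42 and 14 CPM (median 5.54) in basal and between 0.753 and 1.9 CPM (median 1.18) in treated cells (log2 fold change -2.36 ± 0.29, adjusted p = 1.2e-07). The other lowered *Lce1* genes had smaller falls with overlapping groups, except *Lce1c*. *Sprr1b* fell (log2 fold change -0.76 ± 0.18, adjusted p = 0.0014), whereas *Sprr1a* was at -0.58 ± 0.21, just under the fold threshold, and was called in 5 of the 8 fits that left out 1 KO mouse. *Sprr2a1*, *Sprr2a2* and *Sprr2a3*, of which the first 2 overlap in the annotation, were not called. Members of each subfamily are near-identical in sequence, and the division of shared reads among them is uncertain.

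Keratins other than *Krt1* and *Krt10* mostly stayed within the fold threshold, with 2 of 14 tested basal and stress keratins raised and 2 lowered (median -0.21). Over all tested genes, 6.33% were raised and 4.55% lowered. The basal keratin gene *Krt5* lay between 20084 and 24258 CPM (median 21580.5) in basal and between 17089 and 18345 CPM (median 17366) in treated cells, lower in all 8 mice without a call (log2 fold change -0.31 ± 0.039, adjusted p = 2.3e-07). The stress keratin genes *Krt6a* and *Krt16*, which mark wounded and psoriatic epidermis, were lower in all 8 mice by -0.54 ± 0.038 and -0.52 ± 0.069, also without a call, and *Krt17* was not called. *Krt75*, a hair follicle companion layer keratin gene, lay between 1.32 and 2.98 CPM (median 1.74) in basal and between 15.3 and 30.1 CPM (median 18.1) in treated cells (log2 fold change 3.34 ± 0.20, adjusted p = 5.24e-14). *Krt15*, a keratin of resting basal and bulge cells, lay between 10.9 and 20.3 CPM (median 14.2) in basal and between 1.67 and 5.95 CPM (median 4.68) in treated cells (log2 fold change -1.76 ± 0.20, adjusted p = 4.6e-08), and *Krt79* fell from a median of 1.96 to 0.155 CPM (log2 fold change -3.37 ± 0.41, adjusted p = 1.19e-07).

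Epidermal proteases and their inhibitors fell more often than they rose. Of 23 tested genes, 10 fell, 4 rose and 9 were not called (median -0.40). *Klk5*, the kallikrein that starts the desquamation cascade, lay between 16.8 and 41.4 CPM (median 20.7) in basal and between 6.55 and 14.8 CPM (median 7.55) in treated cells (log2 fold change -1.43 ± 0.24, adjusted p = 2.66e-05), and *Klk7*, its target, fell with overlapping groups (log2 fold change -0.68 ± 0.21, adjusted p = 0.0143). *Klk6*, *Klk11* and *Klk13* fell too. Clade B serpins split, since *Serpinb7* fell (log2 fold change -2.96 ± 0.30, adjusted p = 4.96e-09) with *Serpinb6c*, *Serpinb11* and *Serpinb12*, and *Serpinb3b* rose from 1.4 to 3.59 CPM (median 2.58) to 24 to 47.2 CPM (median 27.1) (log2 fold change 3.64 ± 0.19, adjusted p = 2.14e-15) with its paralog *Serpinb3a*. The kallikrein inhibitor gene *Spink5* was at 0.44 ± 0.14 without a call.

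Genes of matrix degradation and plasminogen activation rose for 9 of 21 tested and fell for 2 (median 0.41). *Mmp9*, the gene of gelatinase B, lay between 2.34 and 4.68 CPM (median 3.04) in basal and between 15 and 31.8 CPM (median 23.8) in treated cells (log2 fold change 2.87 ± 0.17, adjusted p = 4.4e-14). *Plaur*, the urokinase receptor gene, lay between 28.7 and 59.8 CPM (median 42.8) in basal and between 95.7 and 145 CPM (median 112) in treated cells (log2 fold change 1.40 ± 0.14, adjusted p = 3.04e-09). No overlap was seen for either gene. Other raised members included *Plau*, *Mmp2*, *Mmp3*, *Mmp13*, *Adam8* and *Timp2*, while *Timp3* (-0.81 ± 0.064) and *Adamts1* (-1.56 ± 0.084) fell. Of 19 genes of hemidesmosomes and the basal lamina, 4 rose, none fell and 15 were not called (median 0.39), against 6.33% of all tested genes raised. In all 8 mice 16 of the 19 were higher, which held for 12.6% of all tested genes. The collagen-binding integrin gene *Itga2* lay between 105 and 153 CPM (median 122) in basal and between 271 and 348 CPM (median 312) in treated cells (log2 fold change 1.28 ± 0.085, adjusted p = 6.48e-13), and *Itgav*, *Itga3* and *Col4a2* rose. *Lamb3* and *Itgb4* were higher in all 8 mice by 0.52 ± 0.068 and 0.24 ± 0.049 without a call, and the hemidesmosome plaque gene *Dst* was lower by -0.43 ± 0.052.

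Ligands of the EGF receptor rose and fell, with 4 of 13 genes of the group raised and 1 lowered (median 0.34). The shares over all tested genes were 6.33% and 4.55%. *Hbegf* lay between 19.2 and 27.7 CPM (median 22.2) in basal and between 50.8 and 83.4 CPM (median 60.2) in treated cells (log2 fold change 1.44 ± 0.11, adjusted p = 3.44e-11), and *Tgfa* rose by 1.09 ± 0.089, with *Btc* and the receptor inhibitor gene *Lrig1*. *Epgn*, the gene of epigen, lay between 355 and 543 CPM (median 416) in basal and between 189 and 260.0 CPM (median 248) in treated cells (log2 fold change -0.88 ± 0.12, adjusted p = 7.79e-07). *Areg* was not called (log2 fold change 0.34 ± 0.23, adjusted p = 0.292), and neither was *Egfr*.

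Most mitotic genes were higher in treated KO cells, by less than the fold threshold for the greater number. Of 27 tested, 22 were higher in all 8 mice, which held for 12.6% of all tested genes, 8 rose, none fell and the median was 0.51. The count of raised genes was 5 without KO replicate 3 and 4 without KO replicate 6 or 7. *Cdk1* lay between 17.2 and 40.2 CPM (median 29.9) in basal and between 33.1 and 51.5 CPM (median 47.1) in treated cells, with overlapping groups (log2 fold change 0.65 ± 0.20, adjusted p = 0.0135). *Bub1*, a spindle checkpoint kinase gene, rose by 0.74 ± 0.26 and *Plk1* by 0.68 ± 0.27, and *Plk1* was not called without KO replicate 3, 6 or 7. *Mki67* and *Top2a* were not called (0.28 ± 0.22 and 0.41 ± 0.23). Mitotic genes vary together with the number of dividing cells, so these are not independent observations. Of 24 genes of DNA replication, 1 rose (median 0.24), against 6.33% of all tested genes raised. An adjusted p under 0.1 was reached upward by 9 and downward by none. In all 8 mice 11 were higher, which held for 12.6% of all tested genes. The raised gene was the licensing factor gene *Cdt1*, which lay between 7.55 and 14 CPM (median 10.9) in basal and between 17.7 and 22 CPM (median 19.2) in treated cells (log2 fold change 0.89 ± 0.14, adjusted p = 1.31e-05). *Pcna*, *Mcm5* and *Rrm2* were at 0.091 ± 0.063, 0.43 ± 0.17 and 0.52 ± 0.12 without a call.

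Lipid genes were called in some pathways and not in others. Of all tested genes, 10.9% were called (6.33% raised, 4.55% lowered) and 35.8% had an adjusted p under 0.1 in either direction. None of 24 genes of cholesterol synthesis and uptake was called (median 0.034), among them *Hmgcs1*, which lay between 444 and 531 CPM (median 463) in basal and between 422 and 501 CPM (median 451) in treated cells (log2 fold change -0.07 ± 0.05, adjusted p = 0.332), although 10 had an adjusted p under 0.1 upward and 6 downward. Of 28 genes of ceramide and acylceramide synthesis, 7 rose, 4 fell and 17 were not called (median 0.20). The epidermal lipoxygenase gene *Alox12b*, needed for the lipid envelope of corneocytes, lay between 14.7 and 36.8 CPM (median 16.7) in basal and between 36.5 and 66.2 CPM (median 43) in treated cells (log2 fold change 1.16 ± 0.20, adjusted p = 2.39e-05), and *Aloxe3*, *Pnpla1*, *Degs2*, *Cers2*, *Smpd1* and *Ugcg* (0.66 ± 0.11) rose. *Sptlc3*, a subunit gene of serine palmitoyltransferase, fell (log2 fold change -0.96 ± 0.17, adjusted p = 3.17e-05), as did *Cers4* (-0.78 ± 0.17), the ceramidase gene *Acer1* (-0.66 ± 0.18) and *Cyp4f39*. The lipid transporter gene *Abca12* was at 0.44 ± 0.085 without a call.

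Among 20 hydrolases of neutral lipids and endocannabinoids, 5 rose, 4 fell and 11 were not called (median -0.14). Over all tested genes, 6.33% rose and 4.55% fell. *Lipe*, the gene of hormone-sensitive lipase, lay between 13.2 and 24.1 CPM (median 15.6) in basal and between 32.5 and 65.8 CPM (median 45.8) in treated cells (log2 fold change 1.47 ± 0.17, adjusted p = 3.63e-08), and the epidermal lipase genes *Lipk* (1.31 ± 0.18) and *Lipn* rose with *Lipg* and *Dagla*. *Lipm*, of the same family as *Lipk* and *Lipn*, fell (-0.70 ± 0.15). The monoacylglycerol lipase gene *Mgll* lay between 31 and 47.6 CPM (median 35.9) in basal and between 14.6 and 21.2 CPM (median 17.7) in treated cells, without overlap (log2 fold change -1.05 ± 0.10, adjusted p = 1.58e-09). *Faah*, which codes for the enzyme that degrades anandamide, lay between 1.62 and 4.22 CPM (median 2.62) in basal and between 0.282 and 1.1 CPM (median 0.672) in treated cells, also without overlap (log2 fold change -2.03 ± 0.24, adjusted p = 9.89e-08).

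None of 20 genes of the unfolded protein response was called (median 0.0097), including *Hspa5* (-0.14 ± 0.046) and *Herpud1* (0.44 ± 0.04), although 3 had an adjusted p under 0.1 upward and 3 downward. None of 11 genes of the Notch pathway was called either (median -0.12), with 1 upward and 5 downward at an adjusted p under 0.1. Of all tested genes, 10.9% were called and 35.8% had an adjusted p under 0.1 in either direction. *Notch3*, the lowest of the Notch list, was at -0.56 ± 0.088 and passed the fold threshold without KO replicate 2, 4 or 6. Of 20 genes of glycolysis and glucose uptake, 2 were called, against 10.9% of all tested genes. The lactate exporter gene *Slc16a3* rose (0.66 ± 0.073) and the glucose transporter gene *Slc2a3* fell (log2 fold change -2.51 ± 0.38, adjusted p = 4.8e-06), around a median of -0.00038. *Slc2a1*, the main glucose transporter gene of keratinocytes, was lower in all 8 mice by -0.42 ± 0.046 without a call. Of 25 antioxidant and NRF2 target genes, 5 rose and none fell (median 0.086), against 6.33% of all tested genes raised. The extracellular glutathione peroxidase gene *Gpx3* lay between 4.25 and 5.61 CPM (median 5.13) in basal and between 11.7 and 13.6 CPM (median 12.7) in treated cells (log2 fold change 1.35 ± 0.10, adjusted p = 5.94e-12), and the glutathione reductase gene *Gsr* lay between 12.8 and 25 CPM (median 19.2) in basal and between 30.4 and 43.7 CPM (median 39.7) in treated cells (log2 fold change 1.05 ± 0.13, adjusted p = 1.11e-07), both without overlap. *Nqo1* rose by 0.64 ± 0.13, together with *Slc7a11* and *Gsta4*. Of 25 genes of apoptosis and cell survival, 6 rose, none fell and 19 were not called (median 0.26). These were genes of inflammatory and necroptotic death and of its restraint, namely *Casp4*, *Casp1*, *Gsdmd*, *Ripk3*, *Mlkl* and *Cflar*. *Gsdmd*, the pore-forming target of inflammatory caspases, lay between 1.86 and 3.6 CPM (median 2.59) in basal and between 5.52 and 7.95 CPM (median 6.37) in treated cells, without overlap (log2 fold change 1.31 ± 0.16, adjusted p = 1.47e-07). The caspase-11 gene *Casp4* reached 1.2 to 2.28 CPM (median 1.63) in treated cells (log2 fold change 2.29 ± 0.39, adjusted p = 3.23e-05), and *Ripk3* and *Cflar* rose by 0.79 ± 0.094 and 0.79 ± 0.063. The BH3-only gene *Pmaip1* was at -0.23 ± 0.052 without a call.

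The responses of KO and WT cells were compared in the same fit. In WT cells 2349 genes were called (13.9%), 8.65% of all tested genes being raised and 5.26% lowered. Both genotypes called 1365 genes, 74.3% of the KO calls and 58.1% of the WT calls, all in the same direction. Across all tested genes the log2 fold changes correlated with r = 0.81 (genes are not independent replicates), and the slope of the KO on the WT values was 0.689. Error in the WT values lowers a least-squares slope, so it does not measure the relative size of the KO response. Of 472 genes called in KO alone, 421 had the same sign in WT cells and 4 had a response that was called different from that of WT, as had 16 of the 984 genes called in WT alone.

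The interaction test called 37 genes (0.219%), of which 31 responded less, or in the negative direction, in KO cells (0.184%) and 6 more (0.0355%). The count ranged from 18 to 92 when single mice were left out, and was 80 with the mouse as a block and 0 when the difference was tested against a fold of 1.5. Among the 31 genes the KO basal mean was above the WT basal mean for all 31, and the KO treated mean was below the WT treated mean for 15. The basal libraries enter the interaction, so the first count is not independent of the choice of genes. Of the 31, 14 were raised in both genotypes.

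*Tnf* rose by 1.51 ± 0.13 in KO and by 2.83 ± 0.17 in WT cells, a difference of -1.32 ± 0.21 (adjusted p = 0.00251). Its basal mean ± standard deviation was 12.5 ± 2.75 CPM in KO and 5.13 ± 1.11 CPM in WT cells. The treated mean ± standard deviation was 35.6 ± 8.42 and 36.4 ± 3.13 CPM, respectively. *Irf7* rose in WT cells (1.86 ± 0.32) and was at 0.21 ± 0.25 in KO cells without a call, and the difference of -1.65 ± 0.40 was called (adjusted p = 0.0559). *Egr1* fell in KO and was at 0.22 ± 0.26 in WT cells (difference -1.29 ± 0.33, adjusted p = 0.0717). *Cxcl12* and *Nppb*, the gene of a natriuretic peptide, responded less in KO cells by -1.02 ± 0.25 (adjusted p = 0.0587) and -1.01 ± 0.20 (adjusted p = 0.01). The log2 fold change was also smaller in KO than in WT cells for *Cxcl1* (-0.83 ± 0.20, adjusted p = 0.0484), *Plaur* (-1.01 ± 0.22, adjusted p = 0.0301), *Hbegf* (-0.76 ± 0.18, adjusted p = 0.0519) and *Tnfaip3* (-0.64 ± 0.10, adjusted p = 0.00201). These last genes were picked after their values had been seen, and no fits without single mice are given for them.

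When each of the 13 mice was left out in turn, the differences for *Tnf* and *Nppb* were called in all 13 fits, that for *Cxcl12* in 7, that for *Irf7* in 5 and that for *Egr1* in 3, and all 5 were called with the mouse as a block.

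In the other direction, *Gpx3* rose in KO cells and was at 0.39 ± 0.12 in WT cells, without a call (difference 0.96 ± 0.16, adjusted p = 0.00251). The glycerol and water channel gene *Aqp3* lay between 49.3 and 78 CPM (median 67.1) in basal and between 16.5 and 24.9 CPM (median 19.5) in treated cells in KO cells and fell in both genotypes, by -1.70 ± 0.12 in KO and -2.52 ± 0.15 in WT cells (difference 0.82 ± 0.19, adjusted p = 0.0344). *Ltb4r1*, a leukotriene B4 receptor gene, *Prodh*, the gene of proline dehydrogenase, and *Vwa2* fell in WT cells and were not called in KO cells, with differences of 0.84 ± 0.22, 0.71 ± 0.19 and 0.70 ± 0.16 (adjusted p = 0.0923, 0.0829 and 0.0344). The difference for *Gpx3* was called in all 13 fits that left out 1 mouse, those for *Vwa2* and *Aqp3* in 11 and 10, and those for *Prodh* and *Ltb4r1* in 5 and 3. Of the 20 genes with the largest rises and falls in KO cells, none was among the 37. No LCE or SPRR gene was called in the interaction test, with a lowest adjusted p of 0.42 over the 42 genes of the stretch on chromosome 3, so that the lowered *Lce1* genes, of which 11 were called in KO and 2 in WT cells, were not shown to differ between genotypes.

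**Figure D4:**
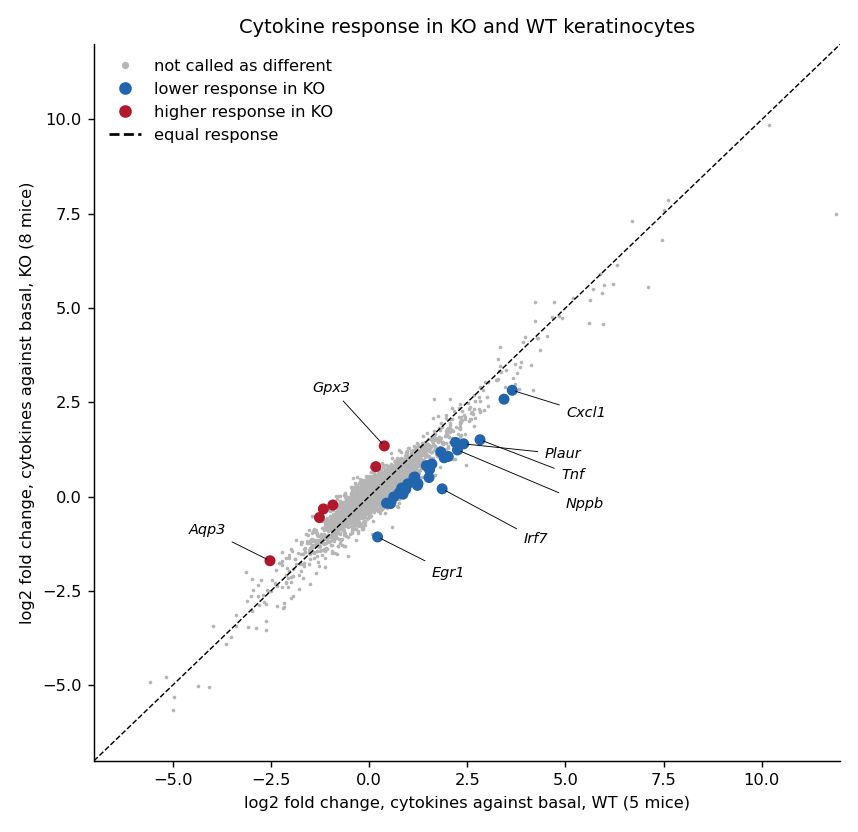
Log2 fold change of IL17A/TNFα against basal in KO cells (8 mice) plotted against that in WT cells (5 mice) for 11855 genes with a mean normalized count over 100, with the line of equal response dashed. Of the genes called in the interaction test, 34 are drawn, in blue where the response was lower and in red where it was higher in KO cells, and they lie near the cloud of the other genes.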

How the data were processed

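Total RNA of 2 cultures per mouse, 1 basal and 1 treated, was sequenced from 8 KO and 5 WT mice with a stranded mRNA kit. Per the submitters' processing notes, the authors aligned reads to mm39 with STAR 2.7.10b and counted them per gene with featureCounts 2.0.6. The strand setting was not given in the sources used here. The authors deposited whole-number counts per gene symbol (56738 symbols), not normalized, and log2 normalized counts, used here only as an alternative. Of the counts between 1 and 10, 83.8% were even, against 53.1% of those over 1000, so that at low counts the counting error is larger than the counts imply.

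Genes with a mean normalized count over 10 (16893) entered a quasi-likelihood fit over the 26 libraries with 1 coefficient per group and no covariate (edgeR 4.0.16, R 4.3.3, library sizes scaled by TMM). The thresholds of the study were kept, namely a Benjamini-Hochberg adjusted p below 0.1 together with a change of more than 1.5-fold. The interaction is the KO response minus the WT response. Log2 CPM of single mice used a prior count of 1. The numbers in the titles were taken to pair the libraries. The methods state that the cells of each animal were cultured individually, but not that equal numbers mark the same animal. Deviations of the 2 libraries of a mouse from their group means correlated between 0.00051 and 0.14 (median 0.099), and 5 of 8 libraries correlated best with their own number. No 2 libraries of a group agreed within sampling noise (lowest chi-square per degree of freedom 6.98 over 56 pairs). Total counts were 42072745 to 78102858 per library.

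Genes were named by a rule: *Pla2g4d*, the 10 largest rises and 10 largest falls in the same direction in 8 of 8 mice with a mean normalized count over 100, from each list its largest called rise and fall, its member with the highest level and up to 3 members for their role, and for the interaction the 5 largest differences each way. Some genes that the rule takes in are not reported here. Other list members are named only as called or not, except that *Cxcl1*, *Plaur*, *Hbegf*, *Tnfaip3* and *Nfkbia* carry values after these had been seen. The 30 lists and 5 marker lists, like the comparison itself, were chosen with earlier results of these data known. *Chi3l1*, *C5* and *Rigi* did not match a symbol by these names. Gene positions and promoters were read from GRCm39 with GENCODE annotation, and 16269 of 16893 tested genes had a promoter.

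Alternatives were DESeq2 size factors, DESeq2 1.42.0, limma 3.58.1 on the deposited log2 values, no filter, filterByExpr, the KO groups alone, the mouse as a block, an adjusted p of 0.05, no fold threshold, glmTreat and each mouse left out. Halving the counts was added after seeing the data. The procedure was tested on simulated data.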

Additional observations from a re-analysis of the deposited data

Results flagged for a closer look

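Among 103 groups of 8 KO libraries examined for 48 genes and for the measures of each mouse, 21 held a library far from the other 7. Chance flags about 1 in 20 groups, and the genes are not independent of each other. In the treated cells of KO replicate 8 the level was the farthest from the others for *Pla2g4d* (59.2 CPM), *S100a8* (1856 CPM), *Lcn2* (254 CPM), *Lce3a* (85.6 CPM), *Il36a* (60.7 CPM), *Pla2g4e* (134 CPM), *Uox* (25.5 CPM) and *Serpinb3b* (47.2 CPM), all raised by the cytokines and all highest in this library. The same library was also the highest for genes that the cytokines lowered, namely *Krt10* (23 CPM), *Dsg1a* (20.9 CPM), *Flg* (32.9 CPM), *Pla2g2f* (15.2 CPM) and *Gsdmc* (2.15 CPM). Its basal partner stood highest for *Krt10* (1139 CPM), *Krt1* (1447 CPM) and *Lce1m* (14 CPM). These genes are those for which the library stood apart, and it was the lowest treated library for *C3* and *Cxcl5*. Without this mouse the log2 fold changes were 4.20 for *Pla2g4d*, 5.10 for *S100a8*, 5.52 for *Lcn2*, 7.42 for *Lce3a*, 3.15 for *Il36a*, 2.59 for *Pla2g4e*, 6.29 for *Uox*, 3.53 for *Serpinb3b*, -5.65 for *Krt10*, -5.02 for *Krt1*, -4.01 for *Dsg1a*, -2.83 for *Flg*, -3.51 for *Pla2g2f*, -4.91 for *Gsdmc* and -2.21 for *Lce1m*, and each was still called.

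Single libraries of other mice stood apart for *S100a8* (14.9 CPM, the lowest basal level, KO replicate 4, with a log2 fold change of 5.15 without that mouse), *Saa3* (2.04 CPM, basal, KO replicate 6), *U90926* (0.0766 CPM, basal, KO replicate 2) and *Tnf* (18.8 CPM, basal, KO replicate 5). The response of KO replicate 4 correlated less with that of the other mice (r = 0.68 across 11855 genes), and its pairing by number had the least support.

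The response differed between KO and WT cells, as tested by the interaction, for 14 of the named genes. The KO response minus the WT response was -1.65 in log2 for *Irf7*, -1.32 for *Tnf*, -1.29 for *Egr1*, which fell in KO cells and was not called in WT cells, -1.02 for *Cxcl12*, -1.01 for *Nppb*, -1.01 for *Plaur*, -0.83 for *Cxcl1*, -0.76 for *Hbegf* and -0.64 for *Tnfaip3*. It was 0.96 for *Gpx3*, 0.84 for *Ltb4r1*, 0.82 for *Aqp3*, 0.71 for *Prodh* and 0.70 for *Vwa2*.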

How the results depend on the processing

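The number of genes changed in KO cells stayed between 1741 and 1835 when each KO mouse was left out and was 1879 with the mouse as a block (1737 shared with the main result), 1911 with DESeq2, 2002 with limma on the deposited log2 values and 1897 with halved counts, an alternative chosen after seeing the data. It was 3305 without a filter on low counts (1979 raised, 1326 lowered), 6048 without the fold threshold (2989 raised, 3059 lowered) and 880 when tested against a fold of 1.5 with glmTreat (511 raised, 369 lowered). Calls among list members numbered 224, 414 without the fold threshold and 141 with glmTreat. The 37 genes with a different response in KO and WT were the least stable result: 62 with DESeq2, 80 with the replicate block, 21 at an adjusted p of 0.05, 166 without the fold threshold, 0 with glmTreat (1542 genes had an unadjusted interaction p under 0.05) and 18 to 92 without single mice, with 19 without KO replicate 5, 60 without KO replicate 8 and 92, 23, 18 and 21 without WT replicates 1, 2, 4 and 5. The cause of these moves was not tested, except that the thresholds act by their construction.

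Of 167 named genes, 158 kept their call and direction in KO cells under every alternative other than the thresholds. The replicate block ended the calls of *Fosb* and, over all mice, *C2*, and changed no other call of a named gene in KO cells. Direction turned for *Calr* without KO replicate 8 (-0.012, from 0.019, and up to 0.047 without KO replicate 2, never called), and *Gm9696* was at 0 by limma, being listed at 0 in the deposited log2 values. Depth limits *U90926*, *Vnn3*, *Csf2*, *Cxcl3*, *Il17c* and *Tnip3*, whose basal counts were near 0.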

Other observations

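Other genes among the 31 with a lower response in KO than in WT cells (0.184% of all tested genes) are given here, picked after their values had been seen and with no count over genes of like function. *Acta2*, the gene of smooth muscle actin, had a log2 fold change of -0.0074 ± 0.064 in KO and 0.63 ± 0.081 in WT cells (difference -0.64 ± 0.10, adjusted p = 0.00251 by the interaction test in edgeR). *Ccn1* and *Ccn2*, both coding for secreted matricellular proteins, differed by -0.80 (adjusted p = 0.0134) and -0.93 (adjusted p = 0.0661). *Tagln* and *Myl9* differed by -0.65 (adjusted p = 0.0829) and -0.62 (adjusted p = 0.0261). None of these 5 genes was called in KO cells. *Edn1*, *Inhba* and *Phlda1* rose in both genotypes and differed by -0.82, -0.63 and -0.88 (adjusted p = 0.0059, 0.00364 and 0.00184).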
